A study of Canis lupus familiaris with 5 samples.

Results

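C7 TRPM3 ERBB4 nuclei were a class of fibroblast nuclei of the canine cephalic vein, defined by UMIs (unique molecular identifiers, 1 per captured RNA molecule) of C7, TRPM3, ERBB4, ESR1 and CHRDL1. A nucleus of a distended or control library belonged to the class if it had at least 100 detected features, at least 2 UMIs over these 5 marker genes, and more UMIs over them than over each of 3 other marker sets. The other sets were ZNF385D, ITGA11, COL28A1, NOVA1 and KCNB2, then SEMA3B, AHNAK2, COL6A2, ZNF469 and PI3, then MYRIP, PTPRB, ALDH1A2 and PALMD. Of 4163 nuclei kept in these 4 libraries, 314 were members, of 6868 nuclei kept in all 5 libraries of the series. Distended vein of dog 1 held 295 members, distended vein of dog 2 held 0, control vein of dog 1 held 6 and control vein of dog 2 held 13. Almost all that follows on gene levels therefore describes 1 library of 1 dog.

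The study took cephalic vein from anaesthetised mongrel dogs of 25 kg and profiled nuclear RNA from snap-frozen tissue by droplet single-nucleus sequencing. Distended vein (n = 2 libraries, dogs 1 and 2) had been filled by injection with saline holding papaverine, a vasodilator, and bivalirudin, a thrombin inhibitor, during a harvest of about 30 minutes. Grafted vein (n = 1, dog 1) had been handled that way, implanted as a carotid bypass and removed after 24 h under systemic bivalirudin. Control vein (n = 2, dogs 1 and 2) was a separate segment that had not been distended. All dogs of these libraries were male and all had received sodium pentothal and isoflurane, so the controls shared the anaesthesia but not the papaverine or the injected bivalirudin. Distension and the injected drugs cannot be told apart. Each dog gave 1 library per treatment, so any spread between libraries of 1 treatment is a spread between 2 dogs.

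Fibroblasts build and maintain the collagen and elastin of the vein wall, mainly in its outer layer, the adventitia, and adult tissues hold several fibroblast states side by side. C7 is a late component of the complement cascade and joins the membrane attack complex. TRPM3 is a calcium-permeable ion channel of the TRP family, ERBB4 a receptor tyrosine kinase for neuregulins, ESR1 the oestrogen receptor alpha and CHRDL1 a secreted antagonist of bone morphogenetic proteins (BMPs).

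The libraries differed in depth and in make-up. They held between 410604 and 2667701 UMIs in distended and control veins and 11302558 in the graft. Medians were 446 and 434 detected features per kept nucleus in distended dogs 1 and 2, against 358 and 242 in control dogs 1 and 2. A group of 4 dominant unnamed locus features took 38.5% and 26.5% of the UMIs in distended dogs 1 and 2, against 70.4% and 61.4% in control dogs 1 and 2. Ribosomal protein genes took 0.482% and 8.20% of the remaining UMIs in distended dogs 1 and 2, against 2.34% and 0.488% in control dogs 1 and 2. Features per nucleus and the dominant share thus split by treatment, and the ribosomal share did not; their part in the results below was not tested. Levels below are UMIs per 1000000 (CPM) without the dominant features unless stated. Pairs of libraries shared 4 cell barcodes in all, none of them of a member.

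The share of C7 TRPM3 ERBB4 nuclei did not separate distended from control vein. Members made up 14.0% of 2108 kept nuclei in distended dog 1 (exact 95% binomial interval 12.5% to 15.5%). In distended dog 2 they were 0 of 241, with an exact upper bound of 1.52%; the limit that 3 nuclei set is 1.24%. The control libraries had 0.776% of 773 nuclei in dog 1 (0.285% to 1.68%) and 1.25% of 1041 nuclei in dog 2 (0.667% to 2.13%). Distended dog 1 lay above both controls and distended dog 2 below both, so the treatments overlapped. The means were 7.00 ± 9.90% in distended and 1.01 ± 0.334% in control vein (SD, n = 2 each), and the difference of 5.98 percentage points had p = 1 in an exact two-sided permutation test over 6 arrangements, whose smallest possible p is 0.333. Within dogs the difference was +13.2 points in dog 1 and −1.25 points in dog 2. Intervals cover counting error only.

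Members were also counted among fibroblast nuclei alone. Of the nuclei that passed 1 of the 3 fibroblast rules, members were 35.0% of 843 in distended dog 1 (31.8% to 38.3%) and 0 of 8 in distended dog 2. They were 27.3% of 22 in control dog 1 and 7.47% of 174 in control dog 2. The means were 17.5 ± 24.7% in distended and 17.4 ± 14.0% in control vein (SD, n = 2 each; exact two-sided permutation p = 1). The difference of 0.125 points is the mean of +7.72 points in dog 1 and −7.47 points in dog 2. Distended dog 2 had 66 MYRIP PTPRB ALDH1A2 nuclei, the endothelial class, beside its 8 fibroblast nuclei, and control dog 1 had 510 beside 22. The number of fibroblast nuclei recovered thus ranged from 8 to 843 between libraries, and its part in these shares was not tested.

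Depth differed between libraries, and the share was recomputed after thinning every nucleus to 200 UMIs. Members were then 6.25% of 2047 nuclei in distended dog 1 and 0 of 239 in distended dog 2. They were 0.152% of 657 in control dog 1 and 1.07% of 749 in control dog 2, and shallower nuclei were left out, 61 and 2 in distended dogs 1 and 2 and 116 and 292 in control dogs 1 and 2. The order of the 4 libraries was unchanged. Among fibroblast-rule nuclei, members were then 32.1% of 399 in distended dog 1 and 0 of 2 in distended dog 2, against 9.09% of 11 in control dog 1 and 8.79% of 91 in control dog 2. The differences were 2.52 points among all nuclei and 7.10 points among fibroblast-rule nuclei.

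**Figure D1:**
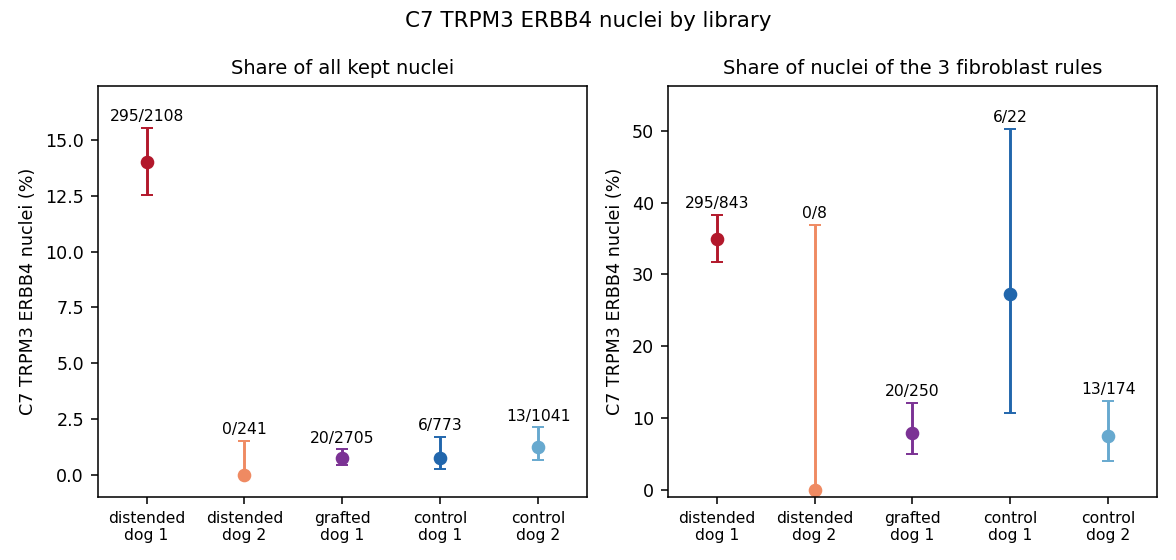
Share of C7 TRPM3 ERBB4 nuclei in percent, for each library, among all kept nuclei (left) and among nuclei of the 3 fibroblast rules (right). Points are libraries and bars exact 95% binomial intervals. Distended dog 1 stands at 14.0% of kept nuclei, distended dog 2 at 0 and both controls at or below 1.25%.

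The 5 marker genes were carried unevenly by the 295 members of distended dog 1. CHRDL1 was detected in 214 nuclei (72.5%) with 511 UMIs and supplied 40.4% of the UMIs that admitted members. ESR1 was detected in 143 nuclei (48.5%, 229 UMIs), C7 in 93 (31.5%, 226 UMIs), ERBB4 in 73 (24.7%, 142 UMIs) and TRPM3 in 71 (24.1%, 158 UMIs). Nuclei with 1, 2, 3, 4 and 5 of the marker genes numbered 86, 135, 59, 14 and 1. Of the 93 nuclei with C7, 54 also had CHRDL1, 43 ESR1, 25 ERBB4 and 17 TRPM3, and 10 had none of the other 4. At a median depth of 568 UMIs per nucleus, most members showed 1 or 2 of the 5 genes.

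All 5 genes were also detected in the neighbouring classes. C7 was detected in 31.5% of members, against 7.72% of SEMA3B AHNAK2 COL6A2 nuclei, 2.08% of ZNF385D ITGA11 COL28A1 nuclei and 0.907% of MYRIP PTPRB ALDH1A2 nuclei. TRPM3 had 24.1% in members, against 6.95%, 2.08% and 0.907% in the same 3 classes. ERBB4 had 24.7% in members, against 3.86%, 1.38% and 0.726%. ESR1 had 48.5% in members, against 15.1%, 19.7% and 0.363%. CHRDL1 had 72.5% in members, against 33.6%, 40.1% and 1.81%. MYRIP PTPRB ALDH1A2 nuclei had a median of 738 UMIs. In ZNF385D ITGA11 COL28A1 nuclei the intervals of C7 (0.766% to 4.46%), TRPM3 and ERBB4 overlapped those in MYRIP PTPRB ALDH1A2 nuclei (0.295% to 2.10% for C7), and those of ESR1 and CHRDL1 did not. Each class was defined by fewer of these UMIs than of its own set, so these shares are in part set by the rule, and the source of these UMIs was not tested. These differences are what the rule selected and are a description, with no test.

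**Figure D2:**
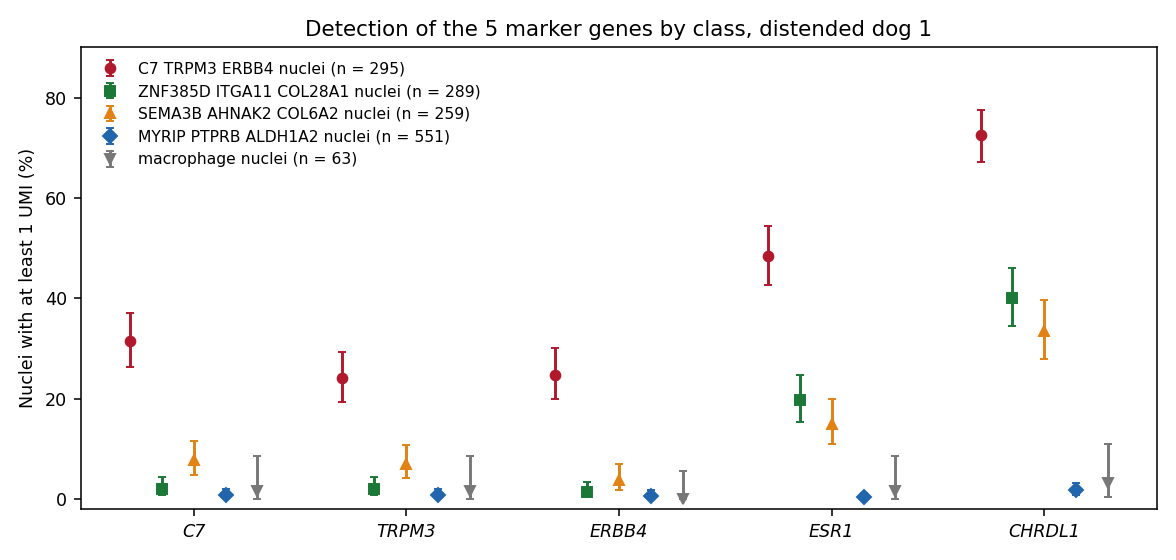
Percent of nuclei with at least 1 UMI of each marker gene, by class of nuclei in distended dog 1. Bars are exact 95% binomial intervals. CHRDL1 reached 72.5% of members and 40.1% of ZNF385D ITGA11 COL28A1 nuclei, and C7 reached 31.5% and 2.08%.

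The rule's threshold cut through a continuous range. In distended dog 1 the score over the 5 genes had a median of 3 in members and a range of 2 to 17, with 85 members at 2 and 210 at 3 or more. A total of 489 nuclei had a score of at least 2, and 194 of them were not members, 64 because of a tie. Among members, 97 led the next set by 1 UMI and 67 had no UMI of the other 3 sets. Members at a score of 2 had 19681 CPM of 15 fibroblast markers and 814 CPM of 12 endothelial markers, and nuclei at 2 that were not members had 22504 and 965 CPM. Nuclei at a score of 1, just outside, had 17539 and 949 CPM, and the 1275 nuclei at 0 had 6006 and 6211 CPM. From a score of 2 to 6 or more, members kept a fibroblast level between 19668 and 21593 CPM while the endothelial level was lower in each higher bin, down to 156 CPM.

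**Figure D3:**
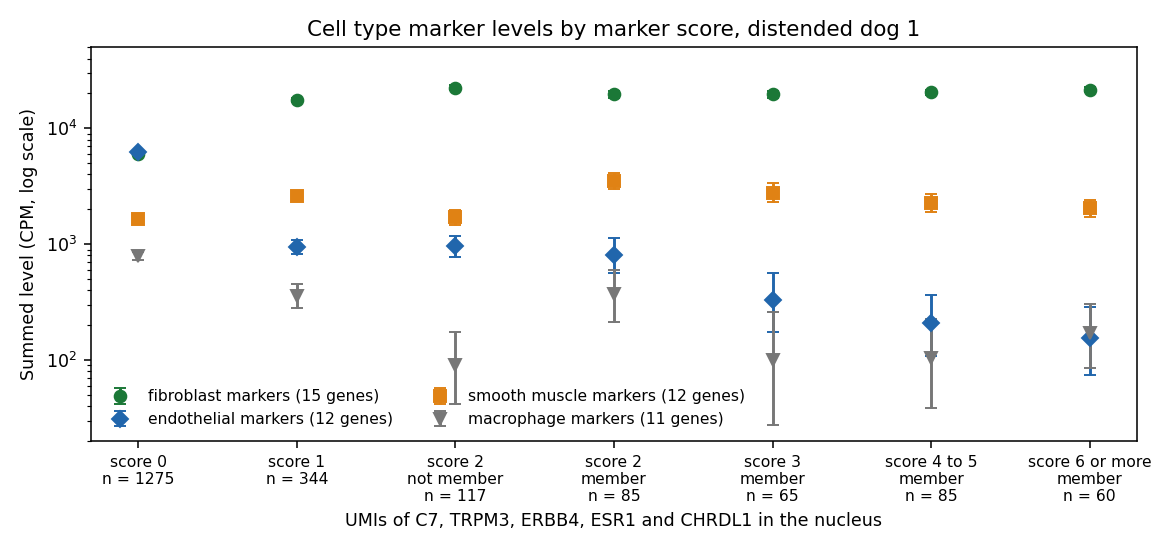
Summed level of fibroblast, endothelial, smooth muscle and macrophage marker lists (CPM, log axis) in nuclei of distended dog 1, by the number of UMIs of the 5 marker genes. Bars are exact 95% intervals for counting error. Fibroblast markers lie at 6006 CPM in nuclei with a score of 0 and at 17539 CPM or more in every other bin.

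The fibroblast label held in distended dog 1. All 15 fibroblast markers were detected and every one of the 295 members had at least 1 of their UMIs. Their summed level was 20487 CPM in members, against 22102 CPM in ZNF385D ITGA11 COL28A1 nuclei, 18868 CPM in SEMA3B AHNAK2 COL6A2 nuclei and 1615 CPM in MYRIP PTPRB ALDH1A2 nuclei. LAMA2, a laminin chain, had 875 UMIs in 244 members, and COL3A1, a fibrillar collagen, had 855 UMIs in 239. Endothelial markers summed to 343 CPM in members, against 9333 CPM in MYRIP PTPRB ALDH1A2 nuclei, with TIE1, EMCN, ROBO4 and ESAM at 0. The rule chose members for fewer UMIs of the MYRIP set than of their own, so gaps to that endothelial class are in part set by the rule. Of the 70 endothelial UMIs in members, 20 were in 1 nucleus. Macrophage markers summed to 181 CPM in members, against 16984 CPM in 63 macrophage nuclei, which were chosen by at least 2 UMIs of CD163, MRC1 and F13A1 of the same list. PTPRC, TIMD4, MSR1, ADGRE1 and SPI1 were at 0 in members. CSF1R, a growth factor receptor of macrophages, gave 21 of the 37 macrophage UMIs, in 17 members, at 103 CPM against 41.0 CPM in all other nuclei (ratio 2.51, 1.44 to 4.23). Lymphocyte and red cell markers were at 0 in members.

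Smooth muscle markers did not reach 0. The 12 markers summed to 525 UMIs and 2572 CPM in members, against 1804 CPM in all other nuclei. ZNF385D ITGA11 COL28A1 nuclei had 1431 CPM of them and SEMA3B AHNAK2 COL6A2 nuclei 2527 CPM. CALD1, a caldesmon that fibroblasts also make, gave 287 of the 525 UMIs of members, in 166 nuclei. MYH11, the smooth muscle myosin heavy chain, had 30 UMIs in 6 nuclei, 13 of them in 1. ACTA2 and TAGLN had 9 UMIs each, and CNN1 had 0. Of 7 markers with at least 50 UMIs, 3 were at least 2-fold higher in members than in all other nuclei and 0 lower. Over all 5582 such genes the shares were 5.57% and 16.1%. The 3 were LMOD1 (260 against 124 CPM), SYNPO2 (255 against 85.0 CPM) and MYLK (328 against 133 CPM). Of the 295 members, 114 held 2 or more smooth muscle marker UMIs and 1 held 33. Among 10 pericyte markers RGS5, STEAP4 and HIGD1B were at 0, and PDGFRB, which fibroblasts share, gave 83 of 101 UMIs. No doublet caller was run.

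The members of the control libraries were few. In control dog 2 the 13 members had 68 fibroblast marker UMIs (17653 CPM), spread over all 13 nuclei, with 6 smooth muscle, 1 endothelial and 0 macrophage UMIs. They held 13 UMIs of CHRDL1, 7 of C7, 6 of ESR1, 3 of TRPM3 and 2 of ERBB4. In control dog 1 the 6 members had 26 fibroblast marker UMIs (6653 CPM) against 53 smooth muscle marker UMIs (13562 CPM), 28 of these in 1 nucleus. Their 17 marker gene UMIs were 10 of CHRDL1, 4 of C7 in 1 nucleus, 2 of ERBB4, 1 of TRPM3 and 0 of ESR1. As a sum these 6 nuclei went against the label of the rule, though not each of them did, since the 1 with a score above 3 had 4 fibroblast and 2 smooth muscle marker UMIs.

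The same rule in grafted dog 1, which lies outside the definition of members, admitted 20 of 2705 nuclei, 0.739% (0.452% to 1.14%), and 15 of them rested on a single marker gene. ERBB4 supplied 67 of their 88 marker UMIs, in 13 nuclei and with 23 in 1, while CHRDL1 had 17, ESR1 3, TRPM3 1 and C7 0. Their fibroblast markers summed to 8283 CPM and their endothelial markers to 1861 CPM. Thinned to 200 UMIs, 0 of 2704 graft nuclei passed. C7, which names the class, was thus not detected in any graft nucleus that the rule admitted, at a median of 3664 UMIs per nucleus.

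The genes below set members of distended dog 1 beside other nuclei of that library. The rule chose the members by expression in these same nuclei, so the ratios are a description and have no test, and their 95% intervals cover counting error only. Against all other nuclei, 311 of 5582 measured genes (5.57%) were at least 2-fold higher in members and 898 (16.1%) at least 2-fold lower. Against ZNF385D ITGA11 COL28A1 nuclei the figures were 93 (4.62%) and 107 (5.31%) of 2015 genes. Against SEMA3B AHNAK2 COL6A2 nuclei they were 26 (1.49%) and 17 (0.974%) of 1745. The SEMA3B AHNAK2 COL6A2 nuclei thus had the fewest genes past 2-fold from members.

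Among secreted signals, HGF, the growth factor that binds the receptor MET, had the highest ratio against all other nuclei of genes outside the rule with at least 30 member UMIs. HGF stood at 220 CPM in members, from 45 UMIs in 38 nuclei, against 28.6 CPM in all other nuclei (ratio 7.71, 4.88 to 12.2). CCN4, a matricellular protein, had 152 CPM in members and 28.6 CPM in the others (5.31, 3.19 to 8.80). ANGPT4, an angiopoietin that binds the receptor TEK, had 172 against 38.7 CPM (4.44, 2.80 to 6.97). LTBP2, a binding protein of elastic fibres, had 270 against 64.2 CPM (4.20, 2.93 to 5.98), and CRISPLD2, a secreted glycoprotein, had 1083 against 301 CPM (3.60, 3.04 to 4.26). ADAMTS15, a secreted metalloproteinase, had 181 against 37.1 CPM (4.89, 3.09 to 7.66). All other nuclei include the endothelial and macrophage nuclei, so these ratios do not set members apart from other fibroblast classes. CRISPLD2 had 758 CPM in SEMA3B AHNAK2 COL6A2 nuclei and 261 CPM in ZNF385D ITGA11 COL28A1 nuclei, and HGF had 66.7 and 30.9 CPM.

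Among membrane proteins, NFASC, the adhesion molecule neurofascin, had 514 CPM in members, against 107 CPM in all other nuclei (ratio 4.79, 3.68 to 6.21). ATRNL1, an attractin-like membrane protein, had 343 CPM in members, against 68.0 CPM in the others (5.04, 3.63 to 6.98). LINGO2, a leucine-rich repeat membrane protein, had 363 CPM in members, against 85.0 CPM in the others (4.26, 3.13 to 5.78). TENM4, a teneurin, had 235 against 55.7 CPM (4.23, 2.87 to 6.17), and KCNT2, a sodium-activated potassium channel, had 265 against 58.8 CPM (4.50, 3.12 to 6.47). Of transcription factors, PRDM6 had 201 against 37.9 CPM (5.30, 3.42 to 8.20) and OSR1, an odd-skipped factor of connective tissue, had 211 against 51.8 CPM (4.07, 2.71 to 6.06). In SEMA3B AHNAK2 COL6A2 nuclei NFASC had 285 CPM, LINGO2 218 CPM and ATRNL1 212 CPM, nearer to members than all other nuclei were. In ZNF385D ITGA11 COL28A1 nuclei they had 146, 26.5 and 44.2 CPM in that order.

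The 25 leading genes of distended dog 1 were looked up in the 13 members of control dog 2, which had not chosen them. They summed to 27 UMIs and 7009 CPM in those members, against 1845 CPM in all other nuclei of control dog 2 (ratio 3.80, 2.48 to 5.58), and 14 of the 25 had a UMI. In distended dog 1 the sums were 7717 CPM in members and 1822 CPM in the others. All other nuclei of control dog 2 held 342 MYRIP PTPRB ALDH1A2, 126 SEMA3B AHNAK2 COL6A2 and 35 ZNF385D ITGA11 COL28A1 nuclei. This ratio against all other nuclei thus does not set members apart from other fibroblasts. The 15 genes highest against ZNF385D ITGA11 COL28A1 nuclei in distended dog 1 were looked up in the same way. They had 2336 CPM in the 13 members and 409 CPM in the ZNF385D nuclei of control dog 2. That is a ratio of 5.72 (1.82 to 19.5), from 9 and 6 UMIs. The like ratio for the SEMA3B class, given below, was 0.632. NFASC alone had 5 UMIs in the 13 control members. HGF and ATRNL1 had 0 there, where 1 UMI equals 260 CPM.

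Within distended dog 1 the leading genes followed the number of marker genes a nucleus carried. The 25 genes summed to 6152 CPM in the 86 members with 1 marker gene, 7566 CPM in the 135 with 2 and 9052 CPM in the 74 with 3 or more. Members with C7 had 9228 CPM, against 6990 CPM in members without it, and TRPM3 (9401 against 7168 CPM) and ERBB4 (9204 against 7129 CPM) gave similar gaps. Members with ESR1 had 7696 CPM, against 7742 CPM without it, and members with CHRDL1 had 7506 CPM, against 8472 CPM without it. Members with C7, TRPM3 or ERBB4 thus had the higher sums, and members with CHRDL1 or ESR1 did not. Fibroblast markers differed less, with 20045 CPM in members with 1 marker gene and 21345 CPM in those with 3 or more. ZNF385D ITGA11 COL28A1 nuclei had 2031 CPM of the 25 genes and SEMA3B AHNAK2 COL6A2 nuclei 4419 CPM. The 25 genes were chosen in these same members, so these sums are a description. A member without a given marker gene had passed the rule on the remaining ones, so the splits by single genes depend on each other. Median depth was 541 UMIs in members with 1 marker gene, 528 with 2 and 768.5 with 3 or more, and its part was not tested.

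Against ZNF385D ITGA11 COL28A1 nuclei, another fibroblast class of distended dog 1 (289 nuclei), the highest ratio outside the genes of the rule was that of KCNMA1. KCNMA1, the pore subunit of the large-conductance calcium-activated potassium channel, had 279 CPM in members, against 8.83 CPM in the ZNF385D class, from 57 and 2 UMIs (ratio 31.6, 8.36 to 267). MYLK, myosin light chain kinase, had 328 against 22.1 CPM (14.9, 6.06 to 47.3). GUCY1A2, a subunit of the nitric oxide receptor guanylate cyclase, had 176 against 17.7 CPM (9.99, 3.58 to 38.6). SYNPO2, an actin-binding protein, had 255 against 35.3 CPM (7.21, 3.40 to 17.6), and MYH11 had 147 against 17.7 CPM (8.32, 2.93 to 32.5).

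Several of these values changed with a filter on the endothelial, macrophage and smooth muscle lists. The smooth muscle list includes CALD1, which fibroblasts also make. CALD1 was detected in 166 members before the filter and in 66 after it. A nucleus left out thus need not have held RNA of another cell type. After nuclei with 2 or more UMIs of endothelial, macrophage or smooth muscle markers were left out, 177 members remained in distended dog 1. MYH11 then had 0 UMIs, and MYLK had 7, at 2.95 times the ZNF385D class (0.674 to 17.7). KCNMA1 had 14 UMIs in 11 members and SYNPO2 14 in 14, both against 0 in the ZNF385D class. Their ratios to the ZNF385D class were 10.1 for GUCY1A2 (2.38 to 90.7), against 9.99 with all members, 10.5 for LINGO2 (3.22 to 54.5), against 13.7, and 8.85 for ATRNL1 (3.45 to 29.0), against 7.77. The ratio of HGF was 4.55 (1.63 to 15.7), against 7.13 with all members. MYH11, SYNPO2 and MYLK are themselves in the smooth muscle list, so that leaving out its nuclei lowers them by construction. Of the 25 leading genes against all other nuclei, 15 were again among the leading 25 with these 177 members.

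Other genes were lower in members than in ZNF385D ITGA11 COL28A1 nuclei. PDE4B, a cyclic AMP phosphodiesterase, had 103 CPM in members, against 949 CPM in the ZNF385D class (ratio 0.108, 0.0657 to 0.170). NRG1, a neuregulin ligand of ERBB receptors, had 49.0 against 300 CPM (0.163, 0.0749 to 0.319). CD55, which inhibits complement on cell surfaces, had 44.1 against 300 CPM (0.147, 0.0644 to 0.296). PI16, a marker of adventitial fibroblasts, had 34.3 against 181 CPM (0.189, 0.0717 to 0.426). FBN1, the fibrillin of microfibrils, had 1808 against 4213 CPM (0.429, 0.380 to 0.484), and FN1, fibronectin, had 441 against 1426 CPM (0.309, 0.242 to 0.392). ELN, elastin, ran the other way, with 3425 CPM in members and 1113 CPM in the ZNF385D class (3.08, 2.66 to 3.57). Of these elastic-fibre genes, members thus had more ELN and less FBN1.

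**Figure D4:**
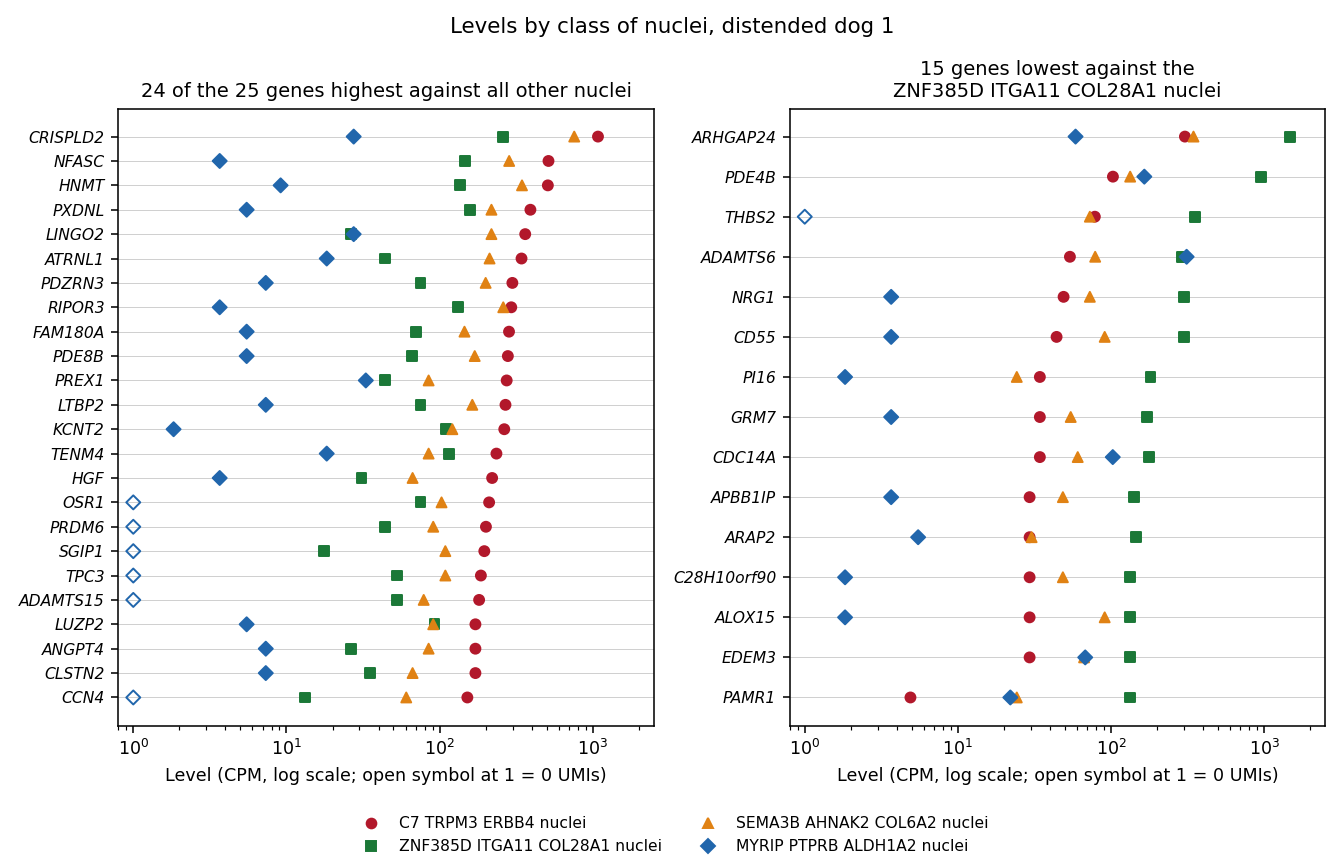
Levels (CPM, log axis) by class of nuclei in distended dog 1, for 24 of the 25 genes highest in members against all other nuclei (left) and the 15 lowest against ZNF385D ITGA11 COL28A1 nuclei (right). Symbols are classes, and an open symbol at 1 stands for 0 UMIs. LINGO2 and HGF stand highest in members, at 363 and 220 CPM, and PDE4B and CD55 in ZNF385D ITGA11 COL28A1 nuclei, at 949 and 300 CPM.

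SEMA3B AHNAK2 COL6A2 nuclei differed from members in few measured genes outside the rule. KCNMA1 had 279 CPM in members, against 66.7 CPM in the SEMA3B class (ratio 4.19, 2.17 to 8.86), and HGF had 220 against 66.7 CPM (3.31, 1.68 to 7.09). PREX1, an exchange factor of the GTPase RAC, had 274 against 84.9 CPM (3.23, 1.78 to 6.29). MMRN1, multimerin, which endothelium makes, had 9.80 against 479 CPM (0.0205, 0.00244 to 0.0764), from 2 and 79 UMIs. KALRN, the exchange factor kalirin, had 63.7 against 430 CPM (0.148, 0.0752 to 0.270). Endothelial markers summed to 343 CPM in members and 703 CPM in the SEMA3B class, and lymphatic markers to 235 and 1139 CPM. Members also held AHNAK2, a gene of the SEMA3B rule, in 35.6% of nuclei. The 15 genes highest against the SEMA3B class in distended dog 1 did not stand higher in control dog 2, with 1038 CPM in members and 1644 CPM in its SEMA3B nuclei (4 and 65 UMIs; ratio 0.632, 0.167 to 1.70).

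The pathways of the 5 marker genes were followed through lists of their partners, counted over genes with at least 50 UMIs in the nuclei compared. The 5 marker genes themselves were left out of these counts. Over all such genes 5.57% were at least 2-fold higher and 16.1% at least 2-fold lower against all other nuclei, and no direction of a list is read from its few genes. Among 8 complement genes, CD55, CD59 and CLU were at least 2-fold lower than in all other nuclei, CLU, clusterin, at 4.90 against 202 CPM. Against ZNF385D ITGA11 COL28A1 nuclei, COLEC12, a collectin, had 201 against 92.7 CPM (ratio 2.17, 1.25 to 3.86), and CFD and CD55 were lower. CFD, the protease factor D, had 274 CPM in members and 1020 CPM in the ZNF385D class. Of 8 genes of the ERBB family and its ligands, NRG2 (113 against 38.7 CPM in all other nuclei) and LRIG3 (681 against 271 CPM) were higher and HBEGF, at 0 UMIs, lower. Among 14 steroid receptor and coregulator genes, GREB1, an oestrogen-regulated gene in human breast cells, had 127 against 20.1 CPM in all other nuclei (ratio 6.34, 3.54 to 11.4), and none of the 14 was 2-fold lower.

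Among 14 BMP pathway genes, BMP6, a ligand, had 19.6 CPM in members, against 172 CPM in all other nuclei, and SMAD1, its signal transducer, had 49.0 against 135 CPM. Of 9 TRP and mechanosensitive channel genes, counted without TRPM3, none was 2-fold higher or lower. Of 16 WNT genes, RSPO3, a ligand that potentiates WNT signals, had 122 against 34.0 CPM, and LGR4 (407 against 199 CPM) and AXIN2 (201 against 69.6 CPM) were also higher. FZD6, LRP5 and SFRP1 were lower, SFRP1 at 4.90 against 315 CPM. The median log2 ratios were 0.27 for complement, 0.56 for ERBB, 0.35 for steroid, 0.20 for BMP, 0.06 for TRP and 0.21 for WNT genes, beside −0.04 over all 5582 genes. Against SEMA3B AHNAK2 COL6A2 nuclei, 0 BMP, ERBB, steroid, TRP or WNT genes were 2-fold higher or lower, of 3, 3, 11, 3 and 6 measured. Of 3 complement genes COLEC12 was higher. Over all 1745 genes of that comparison 1.49% were higher and 0.974% lower.

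Matrix genes were found on both sides. Over all genes 5.57% were 2-fold higher and 16.1% 2-fold lower, and the shares of lower collagen and proteoglycan-list genes below lie near that background. Of 18 collagen genes, COL1A2, COL3A1, COL5A1, COL6A3 and COL12A1 were at least 2-fold higher in members than in all other nuclei, and COL4A5, COL18A1 and COL27A1 lower. Of 31 proteoglycan, elastic-fibre and matricellular genes, 8 were higher, among them ELN at 3425 against 1157 CPM and FBLN5 at 113 against 49.5 CPM, and 6 were lower, among them the basement membrane genes HSPG2 at 201 against 772 CPM and LAMA4 at 779 against 1950 CPM. Among 15 activated fibroblast genes, FAP, COL12A1 and FKBP10 were higher, and the lower ones included RUNX1, THBS1, CCN2 and NOX4. Of 24 immediate early genes, NR4A1 and NR4A3 were higher and KLF2 and KLF6 lower. Proliferation was near 0, with MKI67 at 0 UMIs in members. Against SEMA3B AHNAK2 COL6A2 nuclei, 0 of 18 proteoglycan-list genes were 2-fold higher or lower. Of 13 collagen genes in that comparison 0 were higher and only COL5A3 was lower. The matrix values against all other nuclei thus do not set members apart from the SEMA3B class.

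Distended against control vein was set side by side within members for the libraries with at least 10 of them, distended dog 1 (295 nuclei, 204082 UMIs) and control dog 2 (13 nuclei, 3852 UMIs). These are 1 library each and 2 different dogs, so there is no replicate check and no p-value. The number of genes past 4-fold depended on the scaling. After TMM scaling (an edgeR method that sets libraries level on their typical gene), 37 of 2471 genes (1.5%) were at least 4-fold higher in distended dog 1 and 0 (0%) at least 4-fold lower. In these counts any value under 3 UMIs was set to 3, and genes with at least 20 summed UMIs were counted. With that floor under 13 control nuclei, only genes with many UMIs in distended dog 1 could pass as higher. The lowest fold that passed was that of MAGI2, with 227 and 2 UMIs. A gene could pass as lower only with more than 3 UMIs in control dog 2. Both shares are thus in large part set by the floor. With plain CPM and the same floor, 0 were higher and 11 lower. TMM raised every ratio 2.87-fold (1.52 on the log2 scale), and the floor also kept genes from passing as higher. SLIT2, with 532 and 1 UMIs, did not pass on plain CPM with the floor. The ratios in the next paragraph are plain CPM with no floor. No direction is drawn from either count.

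On the CPM scale, collagens summed to 13598 CPM in members of distended dog 1 and 8048 CPM in those of control dog 2 (2775 and 31 UMIs; ratio 1.69, 1.19 to 2.49). COL3A1 had 4189 against 1817 CPM (2.31, 1.11 to 5.75). Proteoglycan, elastic-fibre and matricellular genes were lower on this scale, at 20026 against 26999 CPM (0.742, 0.611 to 0.910). SLIT2, a guidance ligand, had 2607 against 260 CPM, from 532 and 1 UMIs (10.0, 1.79 to 397). The immediate early genes, which many stimuli induce within minutes, summed to 13558 against 14019 CPM (0.967, 0.739 to 1.29), with JUN at 2842 against 1817 CPM and FOS at 1156 against 1817 CPM. Cytokine and NF-kB response genes summed to 2367 against 5452 CPM (483 and 21 UMIs; 0.434, 0.281 to 0.708), and NFKBIA, the NF-kB inhibitor, had 353 against 1558 CPM (0.226, 0.099 to 0.638). SCARA5, a ferritin receptor of adventitial fibroblasts, had 2475 against 5711 CPM (0.433, 0.283 to 0.698), and MAP1B, a microtubule-associated protein, had 921 against 5452 CPM (0.169, 0.107 to 0.279). The 5 marker genes together had 6203 against 8048 CPM (0.771, 0.540 to 1.14). TMM would raise every ratio of this paragraph 2.87-fold, so which side of 1 a ratio lies on can depend on the scaling. The intervals cover counting error only, with 13 nuclei of another dog as control, and no direction is drawn from these ratios.

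With the 6 members of control dog 1 added, a fit of distended dog 1 against both controls had 1 residual degree of freedom and 72 genes with enough counts. By edgeR's quasi-likelihood test 0 of 72 (0%) passed an adjusted p of 0.05, 0 stood below 0.05 before adjustment and the number by DESeq2 was 0. With 1 distended library this fit had little room to call a gene, and nothing is drawn from it. Levels in this fit were TMM-scaled, with the dominant features kept in the library sizes. Of 67 symbol-bearing genes outside the rule, 24 were above both controls and 5 below both on that scale. These counts were not made on plain CPM, can shift with the scaling, and no direction is drawn from them. JUN had 3676 scaled CPM in distended dog 1 (580 UMIs), against 0 and 1850 in control dogs 1 and 2 (0 and 7 UMIs). KLF4, a stress-responsive transcription factor, had 2561 (404 UMIs), against 0 and 793 (0 and 3 UMIs). COL3A1 had 5419 (855 UMIs), against 1577 and 1850 (7 and 7 UMIs). Below both were DMD, PGM5, PRKG1, MAP1B and THRB. DMD had 241 scaled CPM (38 UMIs), against 5856 and 264 in control dogs 1 and 2 (26 and 1 UMIs). PRKG1, the cyclic GMP kinase of smooth muscle, had 1927 (304 UMIs), against 11711 and 2114 (52 and 8 UMIs). The 6 nuclei of control dog 1 held more smooth muscle than fibroblast marker UMIs in sum, and the part of that in these genes was not tested.

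Over whole veins, levels were summed over all kept nuclei and scaled by TMM. These sums hold the UMIs that admitted the members, so they describe the libraries and add no support to the member counts. C7 had 114 and 1.80 CPM in distended dogs 1 and 2 and 0.184 CPM in the graft, against 4.37 and 43.5 CPM in control dogs 1 and 2. TRPM3 had 80.4 and 0 CPM in distended dogs 1 and 2 and 0.690 CPM in the graft, against 4.37 and 41.8 CPM in the controls. ERBB4 had 70.8 and 1.80 CPM in distended vein and 6.16 CPM in the graft, against 18.6 and 20.1 CPM in the controls. ESR1 had 158 and 3.59 CPM in distended vein and 1.33 CPM in the graft, against 6.55 and 53.5 CPM in the controls. CHRDL1 had 372 and 1.80 CPM in distended vein and 5.47 CPM in the graft, against 25.1 and 107 CPM in the controls. For each gene distended dog 1 was above both controls and distended dog 2 below both.

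The fitted log2 fold changes of the 5 genes, distended over control, were 1.35 for C7 (SE 1.39), 0.90 for TRPM3, 0.97 for ERBB4, 1.49 for ESR1 and 1.53 for CHRDL1, given as a description because the rule rests on these genes. By edgeR's quasi-likelihood test over all genes 0 of 13188 (0%) passed, 193 stood below 0.05 before adjustment, and the number by DESeq2 was 1. The 5 fold changes of the marker genes turned negative when distended dog 1 was left out, C7 to −3.65. In whole-vein sums, fewer nuclei of a class and less RNA per nucleus cannot be told apart. Of the leading genes, HGF, chosen for its level in distended dog 1, had 30.5 and 1.80 CPM in distended dogs 1 and 2, against 3.28 and 20.1 CPM in control dogs 1 and 2. LINGO2 had 68.5 and 144 CPM in distended dogs 1 and 2, against 26.2 and 26.8 CPM in the controls (log2 fold change 1.99, SE 0.70, edgeR adjusted p = 1), and distended dog 2 held no members.

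**Figure D5:**
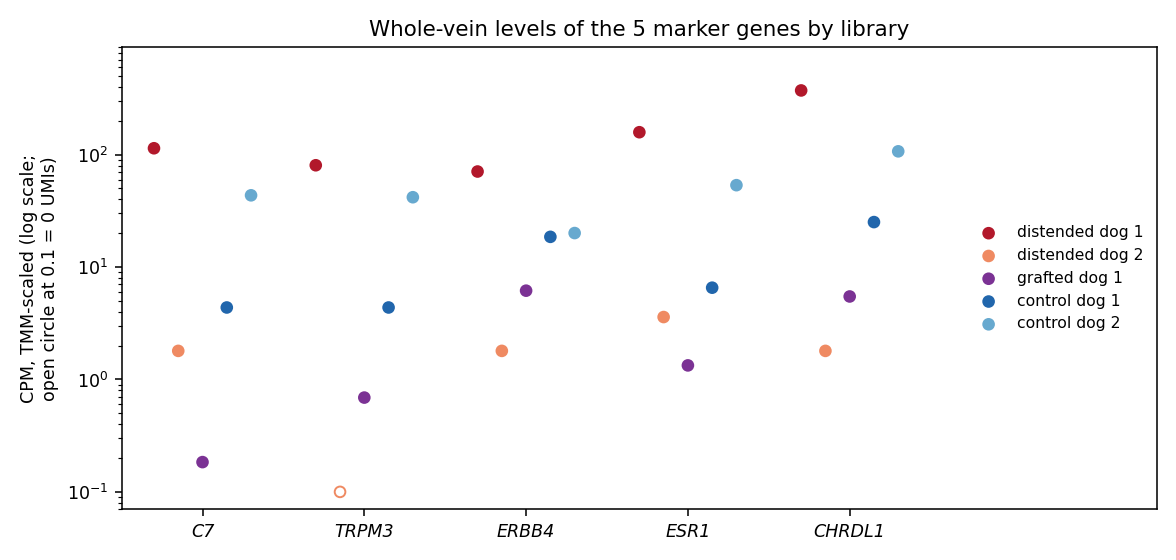
Whole-vein level of each marker gene (TMM-scaled CPM, log axis) in each library, with distended left of grafted and control. An open circle at 0.1 stands for 0 UMIs. For every gene distended dog 1 is the highest library and distended dog 2 lies below both controls.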

How the data were processed

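Nuclear RNA was measured in 5 libraries of cephalic vein from 2 dogs. The deposited files hold UMI counts for each barcode, not normalized, which the authors made with Cell Ranger 7.0.0, per the submitters' processing notes. No coordinates are printed, since the sources used here name no genome build. Gene names are those of the feature tables, and 24 features that name no gene were left out of library sizes and tests (0.588% to 11.5% of UMIs per library). Libraries held 410604 to 11302558 UMIs. Barcodes with at least 100 detected features were kept. The members and gene lists were chosen with earlier results of these data known.

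Replicate numbers pair libraries of the same dog, per the labels; across 4127 genes same-dog deviations from the group means had r = −0.384. Shares were compared by exact permutation tests over libraries, with exact binomial intervals (95%). CPM ratios carry exact binomial intervals for counting error. Sums per library were tested with edgeR 4.0.16 (TMM, filterByExpr, quasi-likelihood, Benjamini-Hochberg, threshold 0.05), tested on simulated data, with DESeq2 1.42.0 as the alternative, in R 4.3.3; other steps used Python 3.11.15. The planned test within members needed 10 members per library, which left 1 library of each treatment, so values stand in its place. The planned interaction with ZNF385D ITGA11 COL28A1 nuclei could not be fitted for the same reason. The whole-vein fit and the leading genes of distended dog 1 alone were added after seeing the data.

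The text names the 19 genes of the rule, genes with the highest or lowest ratios to other classes (at least 30 member UMIs, or as many in the other class for low ratios), and from each list genes with the most member UMIs or past 2-fold. Ranked instead by the median ratio of distended dog 1 and control dog 2, SLC37A1, CCBE1, KIRREL3 and BOC led, each on 1 or 2 UMIs in control dog 2. Genes singled out by sample pattern, such as LINGO2 over whole veins, were chosen after their values were seen. A few list genes are not reported here.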

Additional observations from a re-analysis of the deposited data

Results flagged for a closer look

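The share of C7 TRPM3 ERBB4 nuclei moved in opposite directions in the 2 dogs. Distended minus control vein was 13.2 percentage points of kept nuclei in dog 1 and −1.25 points in dog 2. Among nuclei of the 3 fibroblast rules it was 7.72 points in dog 1 and −7.47 points in dog 2. Each value comes from 1 distended and 1 control library, and the difference between dogs was not tested. Distended dog 2 had 8 nuclei of the fibroblast rules in all, and control dog 1 had 22.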

How the results depend on the processing

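The difference in share of kept nuclei, distended minus control, reversed to −1.01 points without distended dog 1, and leaving out each library gave −1.01 to 12.98 points. The replicate block (differences within each dog) gave 5.98. With 1 library of each treatment per dog, this equals the main value by construction, as does the 0.125 below. Neither is a check, though both are labelled as unchanged. The difference among fibroblast-rule nuclei reversed to −2.17 points with a score of at least 3, to −0.614 with 200 or more detected features and to −17.4 and −9.78 without distended dog 1 and control dog 2; the leave-one-out range was −17.4 to 17.6 and the replicate block gave 0.125. Whole-vein calls moved from 0 to 1 with DESeq2, to 11 with no filter on low counts and over 0 to 218 in leave-one-out, the 218 without distended dog 1; the replicate block and the crossed pairing gave 0. Without distended dog 1, C7 reversed to −3.65, TRPM3 to −10.0, ERBB4 to −3.43, ESR1 to −2.99 and CHRDL1 to −5.15 (log2), with leave-one-out values up to 3.76, 3.26, 1.87, 3.65 and 2.91 for the 5 genes in that order, and with the replicate block ERBB4 reversed to −0.12 and CHRDL1 to −0.21. The 37 genes past 4-fold within members became 10 when nuclei with UMIs of the other sets were left out, 92 with the replicate block (distended over control of dog 1, 6 control nuclei) and 11 with no TMM. The remaining 80 values were labelled as unchanged. For shares this means the same sign, for fold changes the same sign and call, and for counts a size near the main count. The cause of these moves was not tested. DESeq2 and leave-one-out were not run on the 1 against 1 comparison, which has no replicates, and no alternative of the interaction was run.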
